A study of Mus musculus with 12 samples.

Results

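RNF and TRIM genes are named for a RING finger (RNF) or for a tripartite motif of RING finger, B-box and coiled coil (TRIM). Many of these genes encode ubiquitin ligases, but no protein sequence of the members was checked here. They were chosen by symbol, Rnf or Trim followed by a number, and by a level of at least 1 TPM (the usual length-corrected share of a library's transcripts) in at least 2 of 12 libraries. The rule leaves out 1 TRIM gene by name. It kept 95 genes, 61 of 82 RNF and 34 of 67 TRIM symbols, among 11152 genes of the table that reached the same level. The level rule takes no account of genotype or time. The members nearest to the limit were Trim46, Rnf144b and Rnf225, whose second-highest library had 1.24, 1.37 and 1.65 TPM. Just outside it were Trim62, Trim7 and Trim36 at 0.97, 0.97 and 0.89 TPM.

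A RING ligase brings a ubiquitin-loaded conjugating enzyme to a substrate, and so selects the proteins that are marked for degradation, for a change of place or for signalling. TRIM proteins include restriction factors and regulators of the RNA sensors RIG-I and MDA5, and several TRIM genes are themselves induced by interferon. RNF proteins share little beyond the RING finger and work in chromatin, DNA repair, ribosome surveillance, endoplasmic reticulum quality control and endosomal sorting.

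The cells were a mouse line named NRAS/AE9a leukemic cells, a model of acute myeloid leukemia, where AE9a stands for the AML1-ETO9a fusion. Their genotype was wild type (WT) or knockout for Tet2 (KO), and they were harvested at 0, 4 or 8 h of 5 µg/ml actinomycin D, which blocks transcription, with 2 libraries in each of 6 groups. All groups grew in RPMI medium with murine SCF, IL-3 and IL-6 and with G418 and puromycin. The labels give the same cell line name for both genotypes and no separate clones or cultures, so genotype cannot be told apart from other differences between these cells, and p-values cover no more than the spread between the libraries of a group, possibly a technical one. In such bulk RNA, fewer cells of a type and less RNA per cell cannot be told apart. TPM fixes the total of a library, depth is unknown, and no added RNA standard is named, so every change after actinomycin D is relative to the other transcripts.

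The targeted gene Tet2 had 13.1 and 16.0 TPM in WT and 10.2 and 10.2 TPM in KO libraries at 0 h, lower in KO without overlap. The labels do not say which part of the gene was deleted. All 12 markers of myeloid and progenitor leukemic cells were above the limit, with a summed level of 5520 to 5985 TPM in WT and 3434 to 3561 TPM in KO at 0 h. Ly6c2 made up most of that gap (3086 and 3220 TPM in WT, 1366 and 1306 TPM in KO), while others lay higher in KO, such as Mpo with 28.5 and 33.5 TPM in WT and 145.6 and 137 TPM in KO. All 5 mast cell markers were above it too, with a summed level of 996 to 1105 TPM in WT and 3054 to 3232 TPM in KO at 0 h, but Cpa3 made up most of it (911 and 1005 TPM in WT, 3216 and 3042 TPM in KO). The other 4 had lower levels in KO, such as Tpsb2 with 51.6 and 65.6 TPM in WT and 14.4 and 10.6 TPM in KO, and Mcpt4 with 6.15 and 6.22 TPM in WT and 0 in KO. Of 5 erythroid markers 2 were tested, with a summed level of 45.5 to 58.5 TPM in WT and 293 to 296 TPM in KO. Of the T and NK cell markers 1 of 7 was tested, with Cd3d, Cd3g and Ncr1 at 0 in every library and sums of 7.0 to 12.2 TPM in WT and 19.5 to 29.4 TPM in KO, and of the B cell markers 0 of 5, with Pax5 at 0. Megakaryocyte markers (3 of 4 tested) summed to 61.1 to 62.4 TPM in WT and 90.2 to 111.8 TPM in KO, and stromal and endothelial markers (2 of 6 tested) to 132 to 158 TPM and 160.4 to 163 TPM. These shifts in other cell types' markers stand beside each genotype difference given here, and their part in it was not tested.

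In untreated cells the RNF genes summed to 1764 and 1980 TPM in the WT libraries and 1901 and 1871 TPM in the KO libraries. The TRIM genes summed to 674 and 765 TPM in WT and 713 and 710 TPM in KO. The second WT library was the highest of the 4 for both families, and the KO libraries lay between the 2 WT libraries. Trim28, the KAP1 corepressor that KRAB zinc finger proteins recruit to chromatin, had the highest mean level of all members in WT at 0 h, with 143 and 159.8 TPM. Next were Rnf187 with 117 and 125 TPM and Rnf10, a ligase for proteins of the small ribosomal subunit, with 110.2 and 128 TPM. Both Trim28 libraries lay above these, while the libraries of Rnf187 and Rnf10 overlapped. The next 3 were Rnf4, Rnf7 and Rnf126.

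Untreated KO and WT cells were compared first. Of 13 interferon-linked TRIM members 7 were lower in KO. Trim30d had 11.8 and 13.9 TPM in WT and 2.62 and 2.67 TPM in KO libraries, 4.87-fold lower on the means. Across all members, 11 of 34 TRIM genes passed the threshold (limma adjusted p under 0.05), 4 higher and 7 lower in KO, and 8 of 61 RNF genes, 3 higher and 5 lower. In the background of all tested genes 25.7% passed, 14.3% higher and 11.5% lower. The RNF share lies under that background and the TRIM share above it, and whether the shares differ was not tested. Median log2 changes were -0.07 for TRIM, -0.04 for RNF and 0.06 for all tested genes. After median-ratio scaling, which divides a library by the median ratio of its genes to their means over libraries, 10 RNF genes passed, 5 higher and 5 lower, and 9 TRIM genes, 3 higher and 6 lower. Of all genes 13.1% were then higher and 11.8% lower.

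**Figure D1:**
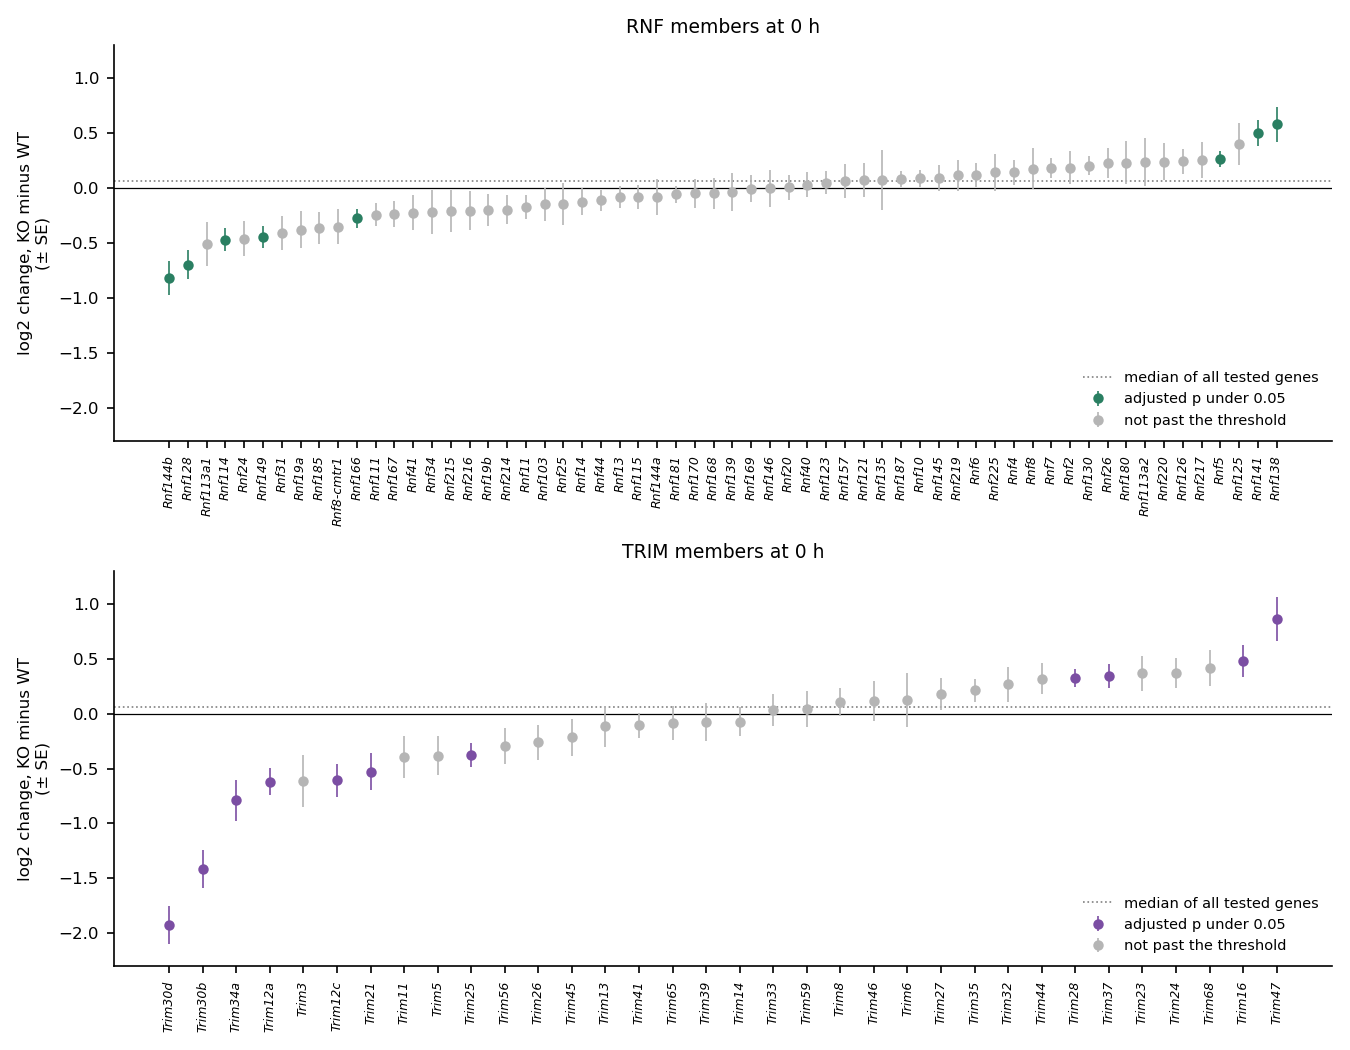
Log2 change of TPM + 1 (KO minus WT at 0 h, y axis) of RNF and TRIM members (x axis, ordered by size), with bars for the standard error and n = 2 against 2 libraries. Trim30d (-1.93) and Trim30b (-1.41) lie lowest, and Trim47 (0.86) lies highest.

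A list of 20 antiviral and interferon-linked RNF and TRIM genes was used for the next counts. Of its 16 TRIM genes, 13 were members, and 7 of these were lower in KO, 0 were higher, and the median log2 change was -0.38. All 7 TRIM genes that were lower in KO belong to this list. Trim30d, one of the rodent Trim30 genes, had a log2 change in KO of -1.93 ± 0.18 (n = 2 and 2 libraries, limma adjusted p = 8.36e-06). Its error, like all errors below, is an SE from limma's spread over all 12 libraries. Its relative Trim30b had 4.96 and 5.71 TPM in WT and 1.15 and 1.63 TPM in KO. That is a log2 change of -1.41 ± 0.17 (limma adjusted p = 8.89e-05). For both genes the highest KO library lay under the lowest WT library. With no true difference, 2 against 2 libraries lie apart in 33.3% of cases.

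Trim34a had 14.8 and 18.6 TPM in WT and 7.91 and 10.7 TPM in KO, a log2 change of -0.79 ± 0.19 (limma adjusted p = 0.00808). Trim12a, a mouse relative of the retroviral restriction factor Trim5, had 26.3 and 30.3 TPM in WT and 17.7 and 18.3 TPM in KO (-0.62 ± 0.12, limma adjusted p = 0.00285). Trim12c, another such relative, had 30.7 and 37.6 TPM in WT and 23.9 and 20.2 TPM in KO (-0.61 ± 0.15, limma adjusted p = 0.00995). The libraries of the genotypes did not overlap in any of these. Trim21, the cytosolic antibody receptor, had 8.98 and 9.32 TPM in WT and 5.80 and 6.29 TPM in KO (-0.53 ± 0.17, limma adjusted p = 0.0357). Trim25, a ligase of the RIG-I pathway, had 48.1 and 58.6 TPM in WT and 41.5 and 39.9 TPM in KO (-0.38 ± 0.11, limma adjusted p = 0.0228). Among these 7 the log2 difference was smallest for Trim25, and its libraries did not overlap either. Leaving out libraries ended some of these calls. Trim34a was lost without KO replicate 1 (adjusted p = 0.102) or without WT replicate 2 (adjusted p = 0.0726), and Trim12c without KO replicate 2 (adjusted p = 0.101) or without WT replicate 2 (adjusted p = 0.0861). Trim25 was lost without KO replicate 1 (adjusted p = 0.0891), without KO replicate 2 (adjusted p = 0.144) or without WT replicate 2 (adjusted p = 0.137), with a log2 change of -0.24 in the last case. Trim21 was lost without any 1 of the 4 libraries (adjusted p 0.0971 to 0.184), after median-ratio scaling (adjusted p = 0.0874), with no filter on low levels and with an added 0.1 or 0.5 TPM in place of 1. Trim30d, Trim30b and Trim12a stayed past the threshold in each alternative run for them. Trim5 and the Trim12 genes, and likewise the Trim30 genes, are near copies, so reads may have been split between them and each level is uncertain.

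The other 6 TRIM members of the list did not pass: Trim5 (-0.38), Trim6 (0.13), Trim14 (-0.07), Trim26 (-0.26), Trim56 (-0.29) and Trim65 (-0.09) on the log2 scale. Trim5 had 5.54 and 6.18 TPM in WT and 4.54 and 3.99 TPM in KO, so its libraries were apart without passing the test. Of the 3 RNF members of the list, Rnf114 was lower in KO, with 47.2 and 56.2 TPM in WT and 35.6 and 38.4 TPM in KO (-0.47 ± 0.11, limma adjusted p = 0.00613). The Rnf114 call was lost without KO replicate 1 (adjusted p = 0.0658). Rnf125, which ubiquitinates RIG-I and limits its signal, had a log2 change of 0.40 ± 0.19 and did not pass, and neither did Rnf135 (Riplet), which activates RIG-I, at 0.08 ± 0.27. The sensors these ligases act on were lower too. Ddx58, which encodes RIG-I, had 42.6 and 51.0 TPM in WT and 19.2 and 18.1 TPM in KO (-1.28 ± 0.11, limma adjusted p = 4.22e-06). Ifih1, which encodes MDA5, had 11.7 and 14.3 TPM in WT and 4.54 and 3.97 TPM in KO (-1.41 ± 0.17, limma adjusted p = 7.62e-05). Mavs, the adaptor of both sensors, differed by -0.18 ± 0.14 and did not pass. In a list of interferon-stimulated genes that holds no RNF or TRIM gene but includes Ddx58 and Ifih1, 28 of 29 tested genes were lower and 0 higher, with a median of -1.73. Of all tested genes 11.5% were lower and 14.3% higher.

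**Figure D2:**
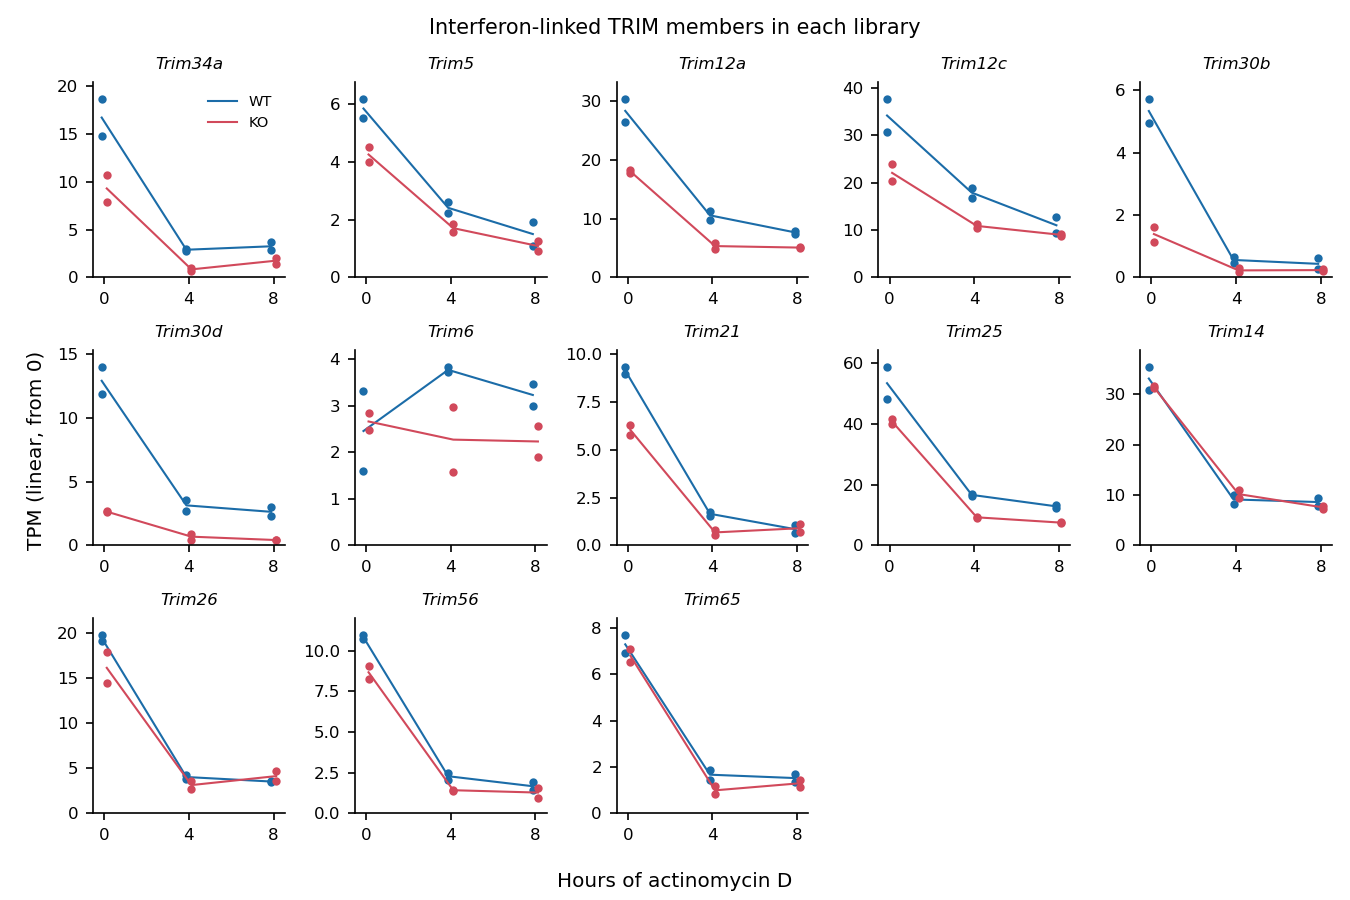
TPM (y axis, linear from 0) against hours of actinomycin D (x axis) for interferon-linked TRIM members, with 1 point per library and lines through the means of WT and KO. At 0 h the 2 KO libraries of Trim30d lie at 2.62 and 2.67 TPM and the WT libraries at 11.8 and 13.9 TPM.

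Members of this group neighbour each other. Trim6, Trim34a, Trim5, Trim12a, Trim12c, Trim30b and Trim30d lie within 289 kb of chromosome 7, from 104218793 to 104507849 (GENCODE M21, GRCm38), and 5 of these 7 were lower in KO, all but Trim5 and Trim6. Those 5 were already counted in the interferon-linked list, and 11.5% of all tested genes were lower. Reference promoters (RefSeq, GRCm38.p6, 250 bases before to 50 after an annotated start) were found for 74 of the 95 members, by gene. They were searched on both strands for the core of the interferon-stimulated response element, GAAA followed after any 2 bases by another GAAA. Of the 26 TRIM genes with a promoter 7 held it (26.9%), of 48 RNF genes 3 (6.25%), of the tested genes with a promoter 4.01% and of all genes with a reference promoter 3.99%. Of 20 interferon-stimulated genes with a promoter, 11 held it. The 7 TRIM windows are printed because each holds the match, in 5 members that were lower in KO and in Trim5 and Trim26, which did not pass. Each is written 5′ to 3′ on the strand of its gene, with 20 bases on either side and capitals for the match or overlapping matches on either strand.
Trim30d, chr7:104507861-104507910, minus strand: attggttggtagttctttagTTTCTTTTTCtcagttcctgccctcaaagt
Trim34a, chr7:104244447-104244496, plus strand: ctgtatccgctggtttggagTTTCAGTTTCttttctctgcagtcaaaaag
Trim5, chr7:104288126-104288175, minus strand: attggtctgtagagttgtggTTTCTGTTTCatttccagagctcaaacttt
Trim12a, chr7:104315456-104315505, minus strand: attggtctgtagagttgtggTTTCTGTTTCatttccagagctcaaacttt
Trim12c, chr7:104353349-104353398, minus strand: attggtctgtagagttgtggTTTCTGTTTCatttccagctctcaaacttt
Trim21, chr7:102565434-102565489, minus strand: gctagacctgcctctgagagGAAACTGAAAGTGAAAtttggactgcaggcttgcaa
Trim26, chr17:36836966-36837021, plus strand: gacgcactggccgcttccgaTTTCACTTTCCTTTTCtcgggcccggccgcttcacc

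The windows of Trim5 and Trim12a were identical over 50 bases, and that of Trim12c shared 48 of 50 bases with either. Yet the first base of the match lay at different offsets from the annotated start, -49 in Trim5, 10 in Trim12a and -29 in Trim12c, where negative offsets are upstream. The offset was -41 in Trim30d, 10 in Trim34a, 13 in Trim21 and -160 in Trim26. Trim12a and Trim12c were lower in KO and Trim5 did not pass, and a difference between Trim5 and the other two was not tested. The 7 TRIM genes with a match had a median log2 change of -0.61 in KO against WT, with 5 lower and 0 higher. The 19 TRIM genes with a promoter and no match had a median of 0.13, with 2 lower and 3 higher. Of all tested genes 11.5% were lower and 14.3% higher. The 5 lower genes with a match were already counted in the interferon-linked list, so they are not a separate observation. A match describes letters only, and Trim30b and Trim25, which were lower in KO, had none in their promoters. The Trim30b promoter, from 104358597 to 104358896, lay inside its minus-strand gene model, which runs from 104355382 to 104369884. The sequence at the start of that model was not searched.

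Outside that list, 4 TRIM genes were higher in KO. Trim47 had 3.79 and 4.12 TPM in WT and 6.97 and 9.19 TPM in KO (0.86 ± 0.20, limma adjusted p = 0.00729). Trim16, which takes part in autophagy of damaged endomembranes, had 13.3 and 13.6 TPM in WT and 18.9 and 19.3 TPM in KO (0.48 ± 0.15, limma adjusted p = 0.0324). Trim37, mutated in mulibrey nanism, had 19.4 and 22.5 TPM in WT and 26.9 and 26.7 TPM in KO (0.35 ± 0.11, limma adjusted p = 0.0353). All 3 had both KO libraries above both WT libraries, which for Trim47 and Trim16 was a condition of being named. Trim28 had 143 and 159.8 TPM in WT and 186 and 193 TPM in KO, also apart (0.33 ± 0.08, limma adjusted p = 0.00992). Each of these calls was lost without at least 1 library. Trim47 was lost without KO replicate 2 (adjusted p = 0.083) or without WT replicate 1 (adjusted p = 0.0504), and with an added 0.1 TPM. Trim16 was lost without any 1 of the 4 libraries (adjusted p 0.0849 to 0.156), after median-ratio scaling (adjusted p = 0.0528), with no filter and with an added 0.1 or 0.5 TPM. Trim37 was lost without KO replicate 1 (adjusted p = 0.159), without KO replicate 2 (adjusted p = 0.145) or without WT replicate 1 (adjusted p = 0.192), with a log2 change of 0.24 in the last case. Trim28 was lost without KO replicate 2 (adjusted p = 0.0842) or without WT replicate 1 (adjusted p = 0.0616). The TRIM count of 11 became 6 without WT replicate 1, 6 without WT replicate 2, 6 without KO replicate 1 and 4 without KO replicate 2, and it was 7 of 19 tested members at a mean of at least 5 TPM.

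Among RNF genes the lower ones included membrane ligases. Rnf128 (GRAIL), known for T cell anergy, had 7.78 and 7.75 TPM in WT and 4.53 and 4.30 TPM in KO (-0.70 ± 0.13, limma adjusted p = 0.00231), and passed in each of its 13 alternatives. Rnf149, with the same protease-associated domain, had 63.8 and 71.7 TPM in WT and 50.6 and 48.5 TPM in KO (-0.44 ± 0.10, limma adjusted p = 0.00645). Both had all WT libraries above all KO libraries. Rnf166 had 47.4 and 48.7 TPM in WT and 38.8 and 40.4 TPM in KO (-0.27 ± 0.09, limma adjusted p = 0.0375). Rnf144b, near the level limit and named here after its values were seen, had 1.37 and 1.52 TPM in WT and 0.51 and 0.27 TPM in KO (-0.82 ± 0.15, limma adjusted p = 0.00188). It is a member through those 2 WT libraries alone, so its place among the 5 lower RNF genes follows in part from the level rule. Higher in KO were Rnf138, which takes part in DNA end resection, Rnf141 and Rnf5, an anchored ligase of the endoplasmic reticulum. Rnf138 had 11.2 and 12.8 TPM in WT and 19.4 and 17.5 TPM in KO (0.58 ± 0.16, limma adjusted p = 0.0186). Rnf141 had 27.3 and 29.5 TPM in WT and 43.4 and 38.1 TPM in KO (0.50 ± 0.12, limma adjusted p = 0.00665). Rnf5 had 59.8 and 60.6 TPM in WT and 71.7 and 73.9 TPM in KO (0.27 ± 0.07, limma adjusted p = 0.0161), so none of the 3 overlapped between genotypes. For Rnf141 this was a condition of being named. Leaving out libraries ended the call of Rnf149 without KO replicate 2 (adjusted p = 0.0546) and of Rnf166 without any 1 of the 4 libraries (adjusted p 0.072 to 0.202). Rnf138 was lost without KO replicate 1 (adjusted p = 0.136), without KO replicate 2 (adjusted p = 0.0598) or without WT replicate 1 (adjusted p = 0.116), Rnf141 without KO replicate 1 (adjusted p = 0.0781), and Rnf5 without KO replicate 1 (adjusted p = 0.0695) or without KO replicate 2 (adjusted p = 0.123). The RNF count of 8 became 3 without KO replicate 1 and 4 without KO replicate 2.

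Counts in the other role groups at 0 h are small beside the 25.7% of all genes called and set no group apart. In chromatin and histone ubiquitination 1 of 8 tested members was called (Trim28, higher), in the DNA damage response 1 of 4 (Rnf138, higher), in ribosome surveillance 0 of 3, with 0 at an unadjusted p under 0.05. In endoplasmic reticulum and membrane ligases 3 of 19 were called, 1 higher and 2 lower, and in signalling, linear ubiquitin and cullin partners 1 of 14 (Trim37, higher). Of 46 ubiquitin ligases of other RING and HECT families 4 were called, 2 higher and 2 lower. They were Nedd4 (0.63 ± 0.09) and Znrf3 (0.58 ± 0.16), higher, and Birc3 (-0.38 ± 0.13) and the interferon-induced Herc6 (-0.90 ± 0.14), lower.

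After actinomycin D the question is how fast each transcript is lost relative to the rest. In WT the RNF sum was 1114 and 1104 TPM after 4 h, then 851 and 922 TPM after 8 h. In KO it was 1200 and 1167 TPM after 4 h, then 1122 and 1074 TPM after 8 h. The TRIM sum was 247 and 252 TPM in WT after 4 h, then 136 and 153 TPM. In KO the TRIM libraries held 262 and 258 TPM after 4 h, then 178 and 180 TPM. Both families took a smaller share of the transcripts at each later time in the means of either genotype. The median member kept 25.3% of its 0 h TPM at 8 h in WT for RNF and 19.6% for TRIM, beside 28.4% for all tested genes. In KO the medians at 8 h were 27.2%, 19.0% and 35.1%. At 4 h they were 35.2% for RNF, 22.2% for TRIM and 49.2% for all genes in WT, and 37.4%, 21.3% and 54.7% in KO. The TRIM median lay under the RNF median in these 4 settings, a difference that was not tested.

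**Figure D3:**
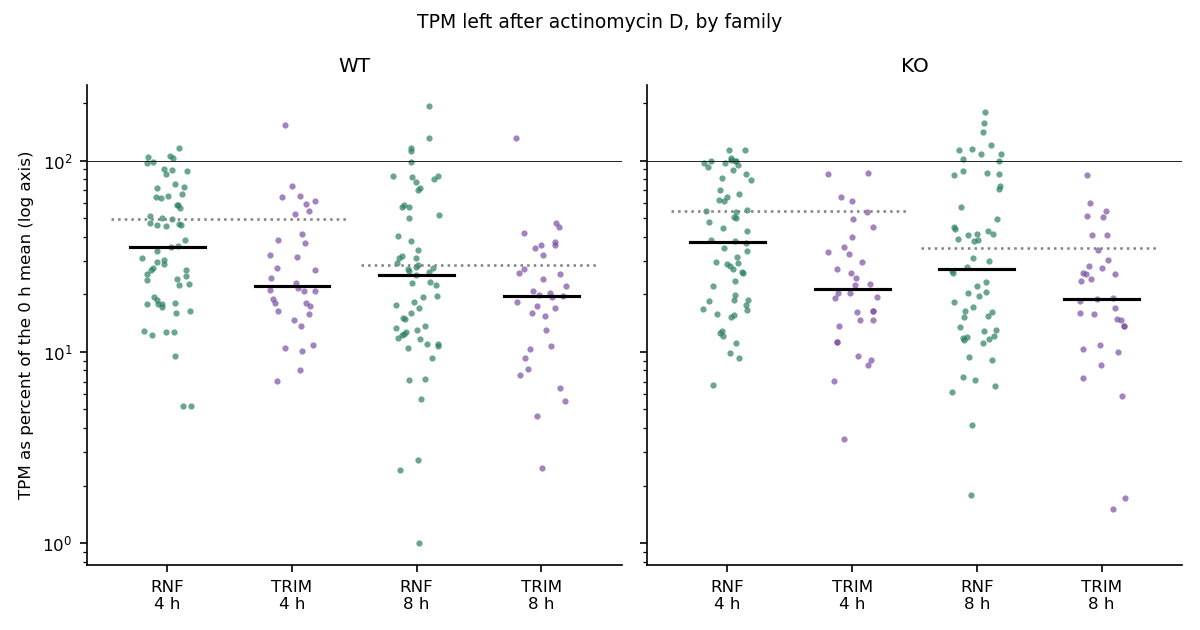
TPM as percent of the 0 h mean (log axis) for RNF and TRIM members at 4 and 8 h in WT and KO, with 1 point per member, solid bars at the family medians and dotted lines at the medians of all tested genes. Rnf144b in WT at 8 h, listed at 0, is drawn at 1. The TRIM medians of 22.2 and 19.6% in WT lie under those of all genes, 49.2 and 28.4%.

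At 8 h 33 of 34 TRIM genes fell in WT and 33 in KO, and 0 rose. Of 61 RNF genes 56 fell and 3 rose in WT, and 49 fell and 4 rose in KO. In the background 88.7% of all tested genes passed in WT, 80.2% lower and 8.48% higher, and 84.9% in KO, 75.4% lower and 9.54% higher, so calls alone do not set the families apart. Of the 95 members 7, Rnf219 and Trim32 among them, reached the level limit in 0 h libraries alone, so their fall follows in part from the rule. At 4 h 52 RNF genes passed in WT (1 higher) and 47 in KO (0 higher), and 31 TRIM genes passed in WT and 32 in KO, all lower, beside 77.8% of all genes in WT (71.0% lower, 6.77% higher) and 72.8% in KO (68.0% lower, 4.88% higher). The median log2 change at 8 h was -1.70 for RNF, -1.95 for TRIM and -1.40 for all genes in WT, and -1.33, -1.79 and -1.16 in KO. After median-ratio scaling the all-gene median at 8 h was -0.07 in WT and -0.03 in KO. The split of calls at 8 h was then 17 higher and 28 lower for RNF and 2 higher and 21 lower for TRIM in WT, and 20 and 30 for RNF and 5 and 23 for TRIM in KO. At 4 h it was 16 and 33 for RNF and 5 and 23 for TRIM in WT, and 20 and 33 and 2 and 23 in KO. In that background 37.7% of all genes were higher and 41.1% lower in WT at 8 h, and 38.7% and 40.7% in KO, and at 4 h 36.5% and 35.2% in WT and 37.1% and 34.5% in KO.

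Most of the loss came early. The log2 fall was larger from 0 to 4 h than from 4 to 8 h for 50 of 61 RNF and 29 of 34 TRIM genes in WT, beside 65.7% of all genes. In KO it was so for 54 of the 60 RNF genes that could be compared and 32 of 34 TRIM genes, beside 68.8% of all genes. Trim8, a regulator of cytokine signalling, shows this course, with 34.0 and 38.6 TPM in untreated WT libraries, 2.96 and 2.91 TPM after 4 h, then 3.5 and 4.30 TPM after 8 h. Its 8 h libraries lay above its 4 h libraries. On the log2 scale of TPM + 1 it fell most of all TRIM genes at 4 h in WT (-3.24 ± 0.13, limma adjusted p = 2.37e-09). In percent kept Trim32 lay lower then, at 7.03% against 8.08% for Trim8. In KO Trim13 fell most at 4 h (-3.76 ± 0.19, limma adjusted p = 7.47e-09). Among RNF genes Rnf139 fell most on that scale at 4 h in WT (-2.79 ± 0.17) and Rnf219 in KO (-2.66 ± 0.14). In percent kept at 4 h in WT Rnf219 lay lower, at 5.19% against 9.47% for Rnf139. Rnf219 reached the level limit in 0 h libraries alone, so its falls follow in part from the level rule.

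Large falls at 8 h occurred in both families. Besides the genes that follow, other members fell by more than Rnf219 on the log2 scale of TPM + 1. They were Rnf2, Rnf8, Rnf168 and Rnf4, given by role further on, in WT, KO or both, and Trim8 and Trim35 in KO. In percent kept at 8 h Rnf219 lay lower than these, at 2.42% in WT and 4.15% in KO, beside 5.64% and 6.14% for Rnf2. Rnf125 had 29.2 and 35.2 TPM at 0 h and 0.99 and 0.76 TPM at 8 h in WT (-4.14 ± 0.19, limma adjusted p = 5.8e-10), and went from 43.2 and 42.0 TPM to 1.96 and 3.72 TPM in KO (-3.54 ± 0.19, limma adjusted p = 2.92e-09). Trim13, anchored in the endoplasmic reticulum, went from 24.3 and 27.3 TPM to 1.15 and 2.20 TPM in WT (-3.35 ± 0.19), and from 25.6 and 22.0 TPM to 0.24 and 0.48 TPM in KO (-4.19 ± 0.19). Trim59 fell by 3.54 ± 0.17 in WT and 3.31 ± 0.17 in KO on the log2 scale. In all 3 the 8 h libraries lay under the 0 h libraries of the same genotype. Trim27 fell by 3.33 ± 0.14 in WT and 3.24 ± 0.14 in KO, Rnf139, which acts on sterol-regulated proteins, by 3.01 ± 0.17 and 2.96 ± 0.17, and Rnf219 by 2.98 ± 0.14 and 2.89 ± 0.14. These 6 genes kept their calls at 8 h, in both genotypes and lower, in each alternative run for them, median-ratio scaling included. Rnf219 reached the level limit in 0 h libraries alone, so its fall follows in part from the level rule.

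**Figure D4:**
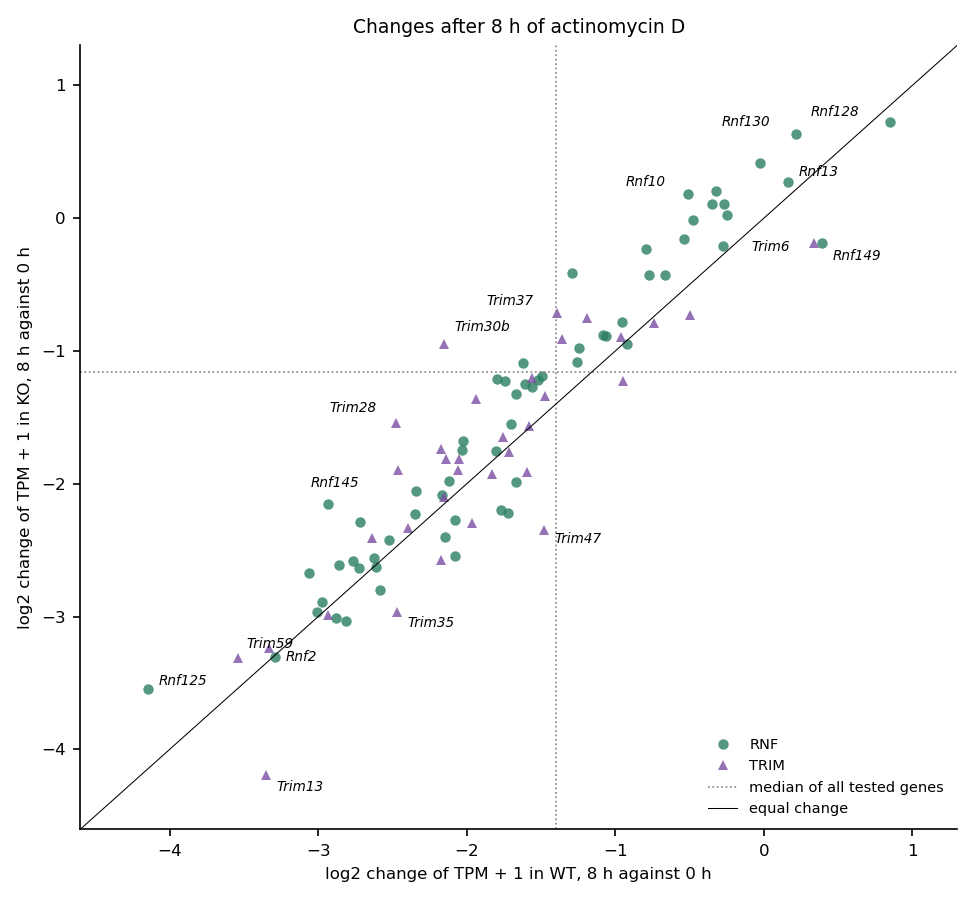
Log2 change of TPM + 1 from 0 to 8 h in WT (x axis) against KO (y axis), with 1 point per RNF or TRIM member, dotted lines at the medians of all tested genes (-1.40 and -1.16) and a solid line of equal change. Rnf125 (-4.14 in WT) and Trim13 (-4.19 in KO) lie lowest, and Rnf128 (0.85 and 0.72) lies highest.

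On the TPM scale 5 RNF genes rose at 8 h in at least 1 genotype, and 4 of them (Rnf13, Rnf128, Rnf130 and Rnf149) encode membrane proteins with a protease-associated domain. Rnf128 had 7.78 and 7.75 TPM at 0 h and 12.9 and 17.0 TPM at 8 h in WT (0.85 ± 0.13, limma adjusted p = 5.28e-05), and went from 4.53 and 4.30 TPM to 7.94 and 7.90 TPM in KO (0.72 ± 0.13, limma adjusted p = 0.000241). Its level at 4 h was 6.80 and 7.30 TPM in WT and 4.26 and 4.28 TPM in KO, so it stood above its start at 8 h alone. Rnf130, the mouse goliath homologue, had 45.0 and 45.2 TPM at 0 h and 70.8 and 70.3 TPM at 8 h in KO (0.63 ± 0.08, limma adjusted p = 1.32e-05). Its rise in WT (0.22 ± 0.08, limma adjusted p = 0.0277) did not hold without WT 0 h replicate 1 (adjusted p = 0.203), without WT 8 h replicate 1 (adjusted p = 0.0769) or without WT 8 h replicate 2 (adjusted p = 0.0619), with 0.10 on the log2 scale in the first case, and its rise at 4 h in WT (0.22 ± 0.08, limma adjusted p = 0.0303) without WT 0 h replicate 1 (adjusted p = 0.207), without WT 4 h replicate 1 (adjusted p = 0.0798) or without WT 4 h replicate 2 (adjusted p = 0.114). Rnf149 rose in WT (0.39 ± 0.10, limma adjusted p = 0.00253), and its change in KO was -0.19 ± 0.10 with no call, 1.21 after median-ratio scaling. In KO Rnf13, an endosomal and lysosomal ligase, rose by 0.27 ± 0.10 (limma adjusted p = 0.0193), a call lost without KO 0 h replicate 1 (adjusted p = 0.0789), without KO 0 h replicate 2 (adjusted p = 0.0538) or without KO 8 h replicate 1 (adjusted p = 0.11). Rnf166 in KO (0.20 ± 0.09, limma adjusted p = 0.046) was lost without any 1 of the 4 libraries compared (adjusted p 0.0509 to 0.227). Of the 5 members with a protease-associated domain (Rnf13, Rnf128, Rnf130, Rnf149 and Rnf167), a group formed after their values were seen, 3 rose in each genotype and Rnf167 fell in each, while after median-ratio scaling 4 rose and 0 fell. The number that rose follows in part from that choice of group. Of all tested genes 8.48% were higher in WT and 9.54% in KO, and 37.7% and 38.7% after median-ratio scaling.

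Trim6 was the 1 TRIM gene with no call at 8 h. It had 1.60 and 3.32 TPM at 0 h and 2.99 and 3.48 TPM at 8 h in WT (0.34 ± 0.24, limma adjusted p = 0.211), and went from 2.85 and 2.48 TPM to 2.57 and 1.90 TPM in KO (-0.19 ± 0.24, limma adjusted p = 0.488). Its libraries at 0 and 8 h overlapped in both genotypes. Some abundant RNF genes ended close to their 0 h level in TPM. Rnf7, the RING partner of cullin-5, fell by 0.28 ± 0.09 in WT and turned to 1.39 after median-ratio scaling, and Rnf5 fell by 0.27 ± 0.07 and turned to 1.39. The Rnf7 call was lost without WT 0 h replicate 2 or WT 8 h replicate 2. Of the 3 ribosome surveillance members, Rnf10, Rnf14 and Rnf25, 3 fell in WT and 2 in KO, and after median-ratio scaling 2 rose in each genotype. Of all tested genes 80.2% fell in WT and 75.4% in KO, and after that scaling 37.7% and 38.7% rose. With 3 genes these counts set no group apart.

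By role, chromatin regulators fell in all 8 tested members in each genotype at 8 h, and in 6 of 8 in each after median-ratio scaling. Of all genes 80.2% were lower in WT and 75.4% in KO, and 41.1% and 40.7% after scaling and whether this or the next groups differ from all genes was not tested. Rnf2, the RING1B subunit of Polycomb repressive complex 1, fell from 18.7 and 20.6 TPM to 1.14 and 1.08 TPM in WT (-3.29 ± 0.15), and kept 5.64% in WT and 6.14% in KO. Of its partners Pcgf1, Pcgf6, Pcgf3 and Pcgf5 kept 8.14%, 9.68%, 10.0% and 13.2% in WT, and Pcgf2 27.7%. In WT and KO the values were 22.6% and 11.6% for Ring1 and 55.9% and 61.7% for Bmi1. Rnf20 and Rnf40, which form the ligase for histone monoubiquitination in transcribed genes, kept 29.2% and 26.6% in WT, and Rnf111, a ligase for SUMO-modified proteins, 30.8%. Rnf4, another such ligase, kept 12.7% in WT and 11.6% in KO. The corepressors Trim33 and Trim24 kept 10.4% and 19.5% in WT. These percentages are ratios of 2 means of 2 libraries each, and the differences between genes in them were not tested.

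All 4 DNA damage response members fell at 8 h in each genotype, beside 80.2% and 75.4% of all genes, and after median-ratio scaling 3 in WT and 4 in KO. Rnf8, the first ligase at a double-strand break, kept 7.23% in WT and fell by 2.67 on the log2 scale in KO. Rnf168, which extends its mark, kept 9.34% and 7.14%. A readthrough transcript of Rnf8 has its own entry in the table, so the reads of Rnf8 may be split. Rnf138 kept 15.9% and 19.5%, and Rnf169 27.5% and 31.0%. Of the interferon-linked members 15 of 16 fell in each genotype, all but Trim6, and after median-ratio scaling 9 fell in WT and 11 in KO and 1 rose in each. Signalling members fell in 14 of 14 in each genotype, and after median-ratio scaling 9 fell in each, 2 rose in WT and 4 rose in KO. Of the 19 endoplasmic reticulum, endosome and membrane members 14 fell and 3 rose in WT and 13 fell and 3 rose in KO, and after median-ratio scaling 9 fell and 7 rose in each. Those not described elsewhere spanned a wide range in WT, from 10.4% for Rnf19a, 12.2% for Rnf26, 14.9% for Rnf185, 17.0% for Rnf103 and 19.5% for Rnf19b to 25.3% for Rnf180, 37.9% for Rnf121, 58.3% for Rnf170 and 97.8% for Rnf215. Among signalling members Trim32 kept 4.65%, Rnf146 11.6%, Rnf34 12.5%, Rnf41 15.1%, Trim11 22.1%, Rnf115 23.3%, Rnf126 31.7%, Trim39 37.5% and Rnf11 57.4% in WT.

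Rnf31 (HOIP), the catalytic subunit of the linear ubiquitin complex, kept less of its transcript than its partners in each genotype. It had 21.9 and 23.0 TPM at 0 h and 2.31 and 2.60 TPM at 8 h in WT (-2.76 ± 0.15, limma adjusted p = 2.84e-09), 10.9% of its start. Rbck1 (HOIL-1) kept 89.4% in WT, with no call (-0.15 ± 0.09, limma adjusted p = 0.107), and rose in KO (0.34 ± 0.09, limma adjusted p = 0.00231), where Rnf31 kept 11.9%. Sharpin kept 47.3% in WT and 49.0% in KO. The 3 transcripts of this complex thus spanned a wide range within the same libraries.

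Of all 23 partner genes 22 fell in WT and 0 rose, and 22 fell and 1 rose in KO, while after median-ratio scaling 12 fell and 6 rose in WT and 13 fell and 6 rose in KO, beside 80.2% of all genes lower in WT and 75.4% in KO. The other RING and HECT ligases fell in 46 of 46 tested genes in WT and 45 of 46 in KO, with medians of -1.89 and -1.66, and after median-ratio scaling in 28 in each, with 7 and 11 that rose. After that scaling 41.1% of all genes were lower and 37.7% higher in WT, and 40.7% and 38.7% in KO. Whether either list differs from all genes was not tested. Between the 2 genotypes the 8 h changes of the members followed each other over genes, with a Pearson r of 0.96 over 61 RNF and 0.86 over 34 TRIM genes, which share libraries and are not independent replicates. Transcript length, length of the 3' untranslated region and its ATTTA count (GENCODE M21) showed weak relations over genes with the 8 h change in WT, with r of -0.24, -0.17 and -0.23 for 60 RNF and -0.04, -0.02 and -0.06 for 34 TRIM genes.

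The last comparison asks whether the loss differed between genotypes. At 8 h the change differed for 12 of 61 RNF genes, 11 higher in KO and 1 lower, and for 6 of 34 TRIM genes, 3 higher and 3 lower. In the background 19.9% of all tested genes differed, 17.3% higher and 2.63% lower, with a median difference of 0.18, so the RNF share is near the background. After median-ratio scaling 5 RNF genes differed, 3 higher and 2 lower, and 5 TRIM genes, 2 higher and 3 lower, beside 8.96% of all genes higher and 7.88% lower. At 4 h 0 of 95 members differed (limma), with 7 RNF and 6 TRIM genes at an unadjusted p under 0.05 and 0.35% of all genes called. The smallest p among them was that of Trim30b (1.06 ± 0.24, limma adjusted p = 0.0908). After median-ratio scaling Trim25 passed at 4 h, at -0.49 (limma adjusted p = 0.0479), as did 1.43% of all genes.

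**Figure D5:**
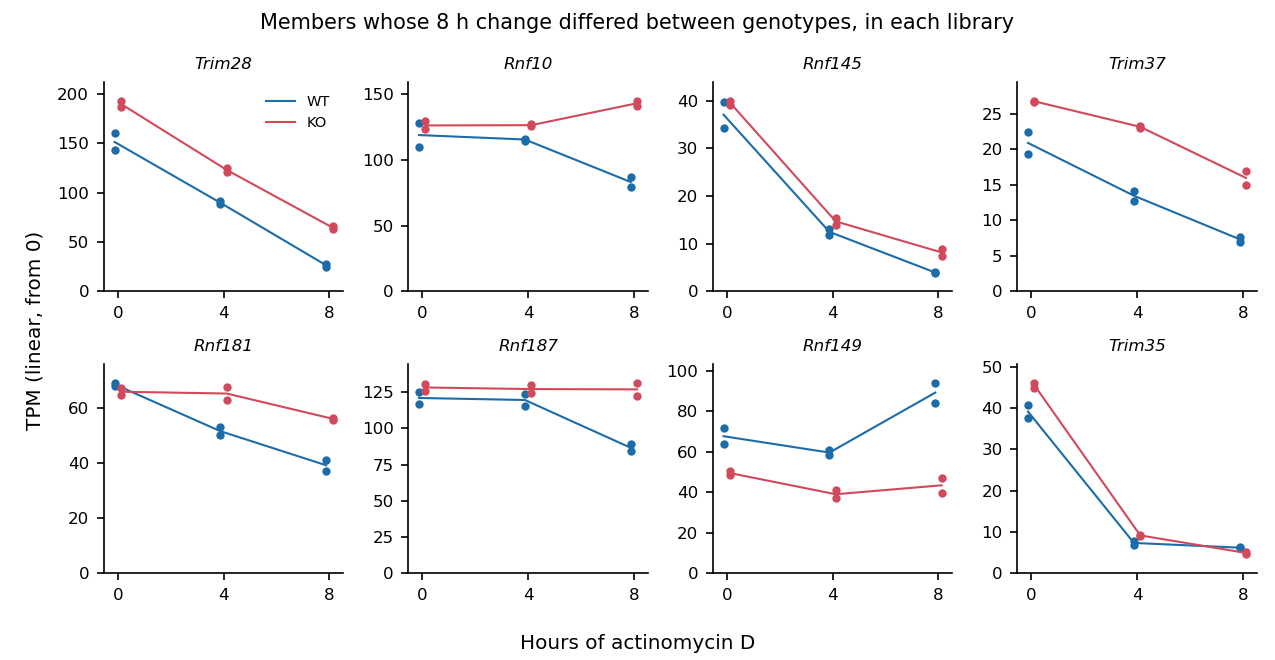
TPM (y axis, linear from 0) against hours of actinomycin D (x axis) for 8 members whose 8 h change differed between genotypes, with 1 point per library and lines through the means of WT and KO. Trim28 ends at 24.8 and 28.0 TPM in WT and at 62.9 and 66.3 TPM in KO.

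Trim28 gave the smallest p of the members in this difference. In WT it started at 143 and 159.8 TPM, passed 91.0 and 88.4 TPM after 4 h, then ended at 24.8 and 28.0 TPM. In KO it started at 186 and 193 TPM, passed 125 and 121 TPM after 4 h, then ended at 62.9 and 66.3 TPM. It thus kept 17.4% in WT and 34.0% in KO, a difference of 0.93 ± 0.11 in log2 change (limma adjusted p = 0.00051). Rnf10 went from 110.2 and 128 to 79.4 and 87.1 TPM in WT and from 129 and 123 to 145 and 141 TPM in KO (0.69 ± 0.11, limma adjusted p = 0.00194). Its WT libraries at 8 h lay below and its KO libraries above their own start in TPM, and after median-ratio scaling the change was positive in both, 1.16 and 1.60. Rnf145, a sterol-responsive ligase of the endoplasmic reticulum, ended at 3.99 and 3.93 TPM in WT and 8.97 and 7.38 TPM in KO from near equal starts (0.79 ± 0.17, limma adjusted p = 0.00728). Trim37 ended at 7.02 and 7.67 TPM in WT and 17.0 and 14.9 TPM in KO (0.68 ± 0.15, limma adjusted p = 0.0102). These 4 genes passed in all 17 alternatives run for each.

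Rnf181 kept 57.2% in WT and 85.1% in KO (0.56 ± 0.11, limma adjusted p = 0.0046). Rnf187 kept 71.6% and 99.0% (0.46 ± 0.10, limma adjusted p = 0.00858). Each lost its call in 1 alternative, median-ratio scaling, at adjusted p of 0.0615 and 0.107. Rnf149 kept more in WT, 132% against 87.8% (-0.58 ± 0.14, limma adjusted p = 0.0141), a call lost without KO 0 h replicate 1 (adjusted p = 0.0548) or without KO 8 h replicate 1 (adjusted p = 0.0563). Trim35 kept 15.9% in WT and 10.9% in KO (-0.50 ± 0.15, limma adjusted p = 0.0335), lost without any 1 of 7 of the libraries, all but WT 0 h replicate 2 (adjusted p 0.0502 to 0.132). Trim13 kept 6.49% and 1.51% (-0.84 ± 0.27, limma adjusted p = 0.0447), lost without any 1 of 6 of the libraries, all but KO 8 h replicate 2 and WT 8 h replicate 1 (adjusted p 0.077 to 0.154), and its difference was -0.55 without WT 8 h replicate 2. Trim47 kept 19.7% and 9.96% (-0.87 ± 0.28, limma adjusted p = 0.0496), lost without any 1 of 7 of the libraries, all but KO 8 h replicate 2 (adjusted p 0.0509 to 0.186). Each of the 4 members with a lower change in KO thus lost its call without at least 2 of the 8 libraries.

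Rnf166 was higher in KO by 0.52 ± 0.12 (limma adjusted p = 0.012), lost without KO 0 h replicate 1 (adjusted p = 0.0537). Rnf114 differed by 0.52 ± 0.15, lost without any 1 of 5 of the libraries, all but KO 8 h replicate 1, WT 0 h replicate 1 and WT 8 h replicate 2 (adjusted p 0.0622 to 0.115). Rnf167 differed by 0.58 ± 0.17, lost without any 1 of 6 of the libraries, all but WT 0 h replicate 1 and WT 8 h replicate 2 (adjusted p 0.0554 to 0.118). These 3 genes thus had differences of similar size and unequal stability. Rnf130 and Rnf5 differed by 0.42 ± 0.12 and 0.38 ± 0.10. Rnf130 was lost without any 1 of 7 of the libraries, all but WT 0 h replicate 1 (adjusted p 0.0519 to 0.0914), and Rnf5 without any 1 of 4 of the libraries, all but KO 8 h replicate 2, WT 0 h replicate 1, WT 0 h replicate 2 and WT 8 h replicate 2 (adjusted p 0.0678 to 0.0959). After median-ratio scaling the calls of Rnf166, Rnf114, Rnf167, Rnf130, Rnf5, Trim30b and Trim47 were lost. Trim30b (1.21 ± 0.24) and Rnf144b (0.87 ± 0.22, named here after its values were seen) started lower in KO at 0 h and ended under 1 TPM in every library at 8 h, so the added 1 TPM of the log scale limits what their difference can show. The Rnf144b difference also rests on the WT libraries that made it a member, and the count of 12 RNF genes includes it. The calls of Trim30b and Rnf144b were lost with an added 0.1 TPM. The Rnf144b call also ended without KO 0 h replicate 2 (adjusted p = 0.0659) or without KO 8 h replicate 1 (adjusted p = 0.0524). Without single libraries the RNF count of 12 became 7 without WT 8 h replicate 1, 5 without KO 0 h replicate 1, 6 without KO 0 h replicate 2 and 7 without KO 8 h replicate 1. The TRIM count of 6 became 3 without WT 8 h replicate 2, KO 0 h replicate 1, KO 0 h replicate 2 or KO 8 h replicate 1. Beside 17.3% of all genes higher in KO and 2.63% lower, 7 of 23 partner genes and 8 of 46 other RING and HECT ligases differed, each of them higher, among them Nedd4 (0.84 ± 0.12), Huwe1 (0.70 ± 0.14) and Uhrf1 (1.03 ± 0.15).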

How the data were processed

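Messenger RNA was measured in 12 libraries, 2 in each of 6 groups, prepared with the KAPA Stranded mRNA-Seq kit from TRIzol RNA per the labels' protocols. The deposited table holds TPM values that the authors made with RSEM, and STAR and the mm10 build are named too, per the submitters' processing notes. Tool versions, the annotation used and whether counting was stranded were not given in the sources used here. TPM fixes a column's total, so read depth is unknown and no interval from counts is given. Members and gene lists were chosen with earlier results of these data known.

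A gene was kept where 2 or more libraries had 1 TPM or more (11152 of 24589). Values were analysed as log2(TPM + 1), which understates changes of low genes, with limma 3.58.1 in R 4.3.3 (6 group means, 6 residual degrees of freedom, variance trend). P-values of 7 comparisons were adjusted by Benjamini-Hochberg over all kept genes, with a threshold of 0.05. The code was tested on simulated data. Named results were drawn from role-list members, up to 8 members each way per comparison and family with the largest estimates (adjusted p under 0.05, mean of at least 2 TPM, no overlap of libraries), the 3 nearest either side of the level limit, and partner genes. For differences of changes the overlap condition does not apply, and where none passes the 3 smallest p are named. A result that met this rule is not reported here. Promoters came from RefSeq (GRCm38.p6) and gene models from GENCODE M21 (GRCm38). Alternatives were median-ratio scaling, a mean of at least 5 TPM, no filter, added values of 0.1 and 0.5 TPM, no trend, robust spread, a replicate block, fits to the compared groups only, and each library left out in turn. Figures used matplotlib 3.10.9 under Python 3.11.15.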

Additional observations from a re-analysis of the deposited data

Results flagged for a closer look

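For 18 members the log2 change from 0 to 8 h differed between KO and WT by limma's test of the difference itself (adjusted p under 0.05), beside 19.9% of all tested genes. The difference was positive, with a higher change in KO, for members that include Trim30b (1.21), Trim28 (0.93), Rnf144b (0.87), Rnf145 (0.79), Rnf10 (0.69), Trim37 (0.68), Rnf167 (0.58), Rnf181 (0.56), Rnf166 (0.52), Rnf114 (0.52), Rnf187 (0.46), Rnf130 (0.42) and Rnf5 (0.38). It was negative for Trim47 (-0.87), Trim13 (-0.84), Rnf149 (-0.58) and Trim35 (-0.50). Rnf144b reached the level limit in its 2 untreated WT libraries alone, so its difference follows in part from the rule that chose it. The differences of all 18 kept their sign after median-ratio scaling.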

How the results depend on the processing

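Over 109 member results named for their size and test, with 1483 alternative values, 0 changed direction, 127 lost the threshold, 1 gained it, and 80 results passed it in each alternative run. Results chosen for size and test are the least likely to change direction, so that 0 says little of the other members. The 109 results leave out members named for their role alone. Among those, Rnf7, Rnf5 and Rnf10 turned from lower to higher in WT at 8 h after median-ratio scaling, at 1.39, 1.39 and 1.16. They are examples and not a full list, since the counts of higher and lower members given above shifted with that scaling too. The counts that moved by more than 1.5 times were these. With a mean of at least 5 TPM, where 19 TRIM genes were tested, the TRIM counts were 7 for KO against WT at 0 h, 19 and 19 for WT at 4 and 8 h, and 18 and 19 for KO at 4 and 8 h. After median-ratio scaling 1 TRIM gene differed at 4 h and 5 RNF genes at 8 h, and with the compared groups alone 3 TRIM genes differed at 8 h. Leaving out 1 library at a time gave 3 to 9 RNF and 4 to 6 TRIM genes for KO against WT at 0 h, and 5 to 15 RNF and 3 to 5 TRIM genes for the 8 h difference. It gave 49 to 51 and 30 to 32 for WT at 4 h, 55 to 58 and 32 to 34 for WT at 8 h, 45 to 47 and 32 for KO at 4 h, 48 to 50 and 33 for KO at 8 h, and 0 and 0 for the 4 h difference. The causes of these moves were not tested, beside the smaller number of genes or libraries. Equal replicate numbers did not pair the libraries: replicate differences correlated at -0.083 to 0.051. With a replicate block the counts were 8 RNF and 11 TRIM genes at 0 h, and 13 and 5 for the 8 h difference. Depth is unknown, 2 libraries a group limit precision, and levels under 1 TPM carry little information.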
